A study of Mus musculus with 15 samples.

Results

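NMDA receptor subunit genes were followed in the striatum of mouse pups whose mothers had inhaled paraquat, titanium dioxide (TiO2) nanoparticles or both while pregnant. The 6 genes, Grin1, Grin2a, Grin2b, Grin2c, Grin2d and Grin3a, were taken by symbol, and all 6 are among the 15569 genes of the expression table. They were listed by name. RNA sequencing gave 15 libraries of striatum from C57Bl/6J pups at post-natal day 14. There were 3 libraries after paraquat, a redox-cycling herbicide (Paraquat), 4 after TiO2 nanoparticles (TiO2), 4 after both agents together (Mixture) and 4 from pups that the labels call untreated (Control). No litter, dam, sex or dose is given, and the labels do not say whether libraries of a group came from separate pups. The p-values therefore measure the spread between these libraries, which may be technical.

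NMDA receptors are glutamate-gated cation channels that open when glutamate and a co-agonist, glycine or D-serine, bind together and depolarisation lifts a magnesium block. They let calcium into the postsynaptic cell and are known for triggering long-term changes of synaptic strength. Each receptor needs the GluN1 subunit, encoded by Grin1, which binds the co-agonist. GluN2 subunits, encoded by Grin2a to Grin2d, bind glutamate and set how fast the channel closes, and GluN3A, encoded by Grin3a, lowers calcium entry and magnesium block. In the developing rodent forebrain GluN2B comes before GluN2A, GluN2D and GluN3A are prominent in early life, and GluN2C is best known from the cerebellum and from astrocytes. Most striatal neurons are medium spiny projection neurons, which receive glutamate from cortex and thalamus.

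In GENCODE M21 on GRCm38 all 6 genes are protein coding and lie on the minus strand. Grin1 spans chr2:25291181-25319187, Grin2a chr16:9567898-9995560 and Grin2b chr6:135713233-136173511. Grin2c spans chr11:115249169-115267243, Grin2d chr7:45831883-45878378 and Grin3a chr4:49661611-49845744. The transcripts fall into GC-rich and GC-poor members. Grin2d has 65.0% GC in its transcripts, higher than 99.6% of the genes tested, Grin2c 62.1% and Grin1 59.4%. Grin3a has 49.2%, Grin2b 45.7% and Grin2a 44.8%. Promoter sequences of Grin1, Grin2c and Grin2d were matched in RefSeq (GRCm38.p6), and those of Grin2a, Grin2b and Grin3a were not used here. The 3 matched entries are shown. Each line runs 5′ to 3′ on the minus strand, from 250 bases before the RefSeq start to 50 after it. Grin1 covers chr2:25319138-25319437, Grin2c chr11:115267194-115267493 and Grin2d chr7:45866632-45866931. The RefSeq start of Grin2d lies inside the longer GENCODE gene. Capitals mark matches, on either strand, to the GC box GGGCGG or the E-box CACGTG. No GC box overlaps an E-box.
Grin1: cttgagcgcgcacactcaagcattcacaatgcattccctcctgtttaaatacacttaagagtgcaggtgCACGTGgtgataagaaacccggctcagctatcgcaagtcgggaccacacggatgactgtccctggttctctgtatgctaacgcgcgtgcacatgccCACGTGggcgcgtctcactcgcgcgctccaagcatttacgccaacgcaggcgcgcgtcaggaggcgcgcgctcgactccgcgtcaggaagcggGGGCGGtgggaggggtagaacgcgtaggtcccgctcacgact
Grin2c: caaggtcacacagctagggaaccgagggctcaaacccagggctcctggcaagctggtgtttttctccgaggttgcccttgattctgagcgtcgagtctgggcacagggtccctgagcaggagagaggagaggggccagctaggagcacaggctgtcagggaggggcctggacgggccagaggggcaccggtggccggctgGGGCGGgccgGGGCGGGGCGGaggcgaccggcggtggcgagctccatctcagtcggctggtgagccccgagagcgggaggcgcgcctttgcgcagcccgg
Grin2d: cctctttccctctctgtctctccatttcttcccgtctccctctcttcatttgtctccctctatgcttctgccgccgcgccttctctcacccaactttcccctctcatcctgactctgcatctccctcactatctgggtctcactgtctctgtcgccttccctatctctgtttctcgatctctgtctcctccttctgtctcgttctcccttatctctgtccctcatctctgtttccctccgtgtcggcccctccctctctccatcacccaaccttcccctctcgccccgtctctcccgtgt
The Grin1 window is 60.7% GC and holds 1 GC box and 2 E-boxes. The Grin2c window is 70% GC and holds 3 GC boxes, the last of which overlap each other. The Grin2d window is 56.0% GC and holds neither motif. None of the 3 windows holds the cyclic AMP response element TGACGTCA. Over all 32851 promoter windows of the same length the median GC was 52.7%, with a GC box in 35.7%, an E-box in 7.15% and the cyclic AMP response element in 1.79%. These matches describe letters in a window and were not tested for binding.

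Depth was 8690925 to 14207513 reads per library, with Paraquat 3 the deepest and the other 14 at 9804609 or fewer. The rarest member value rested on 96 reads, Grin2d in Control 1. Markers of medium spiny neurons were present in every library, with 14 of 14 in the table and none at 0. Their summed normalised read count was 85168 to 93988 in Paraquat, 91378 to 101218 in TiO2, 84963 to 98376 in Mixture and 99215 to 108237 in Control. Of the 14, 5 were lower by test in Paraquat, 2 in TiO2 and 0 in Mixture. Oligodendrocyte markers summed to 84194 to 97557 in Paraquat, 52678 to 82864 in TiO2, 45591 to 79121 in Mixture and 38349 to 57015 in Control, and 7 of 8 were higher by test in Paraquat, 2 in TiO2 and 0 in Mixture. Cortical glutamatergic markers, 9 of 10 in the table with Emx1 not listed, summed to 1577 to 5530.2 in Paraquat, 1121 to 2687 in TiO2, 2383 to 4368 in Mixture and 787 to 1523 in Control. Of the 9, 2 were higher by test in Paraquat, 0 in TiO2 and 0 in Mixture. Astrocyte markers summed to 11735 to 13980.3 in Paraquat, 12204 to 12971 in TiO2, 10531 to 12743 in Mixture and 11203 to 12298 in Control, and 2 of 8 were higher by test in Paraquat, 3 in TiO2 and 0 in Mixture. Of 4 oligodendrocyte precursor markers 1 was higher in Paraquat and 1 in TiO2, of 3 thalamic markers 1 in Paraquat, and of 2 cerebellar granule neuron markers 1 in Mixture. Paraquat 2 had the highest mean log2 difference of the cortical markers from the Control mean, 2.04. By group this difference was 0.35 to 2.04 in Paraquat, -0.28 to 1.01 in TiO2, 0.86 to 1.79 in Mixture and -0.72 to 0.30 in Control. The part of these markers in the subunit results was not tested. In tissue RNA, fewer cells of a type and less RNA per cell cannot be told apart.

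The libraries differed in how levels followed transcript GC content. Each library's deviation from the mean of all libraries was correlated with transcript GC across 15556 genes, which share the library and its depth. Spearman's rho was 0.034 to 0.422 in Paraquat, -0.196 to 0.525 in TiO2, -0.361 to 0.111 in Mixture and -0.449 to 0.108 in Control. Genes of 58 to 60% GC, the range of Grin1, had a median log2 fold change of 0.21 in Paraquat, 0.14 in TiO2 and 0.06 in Mixture against Control. For the 48 genes of 64 to 66% GC, the range of Grin2d, the medians were 0.32, 0.16 and 0.08 in the same comparisons. Differences from Control and the interactions of Grin1 and Grin2d are therefore also given after a smooth GC trend was removed from every library.

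**Figure D1:**
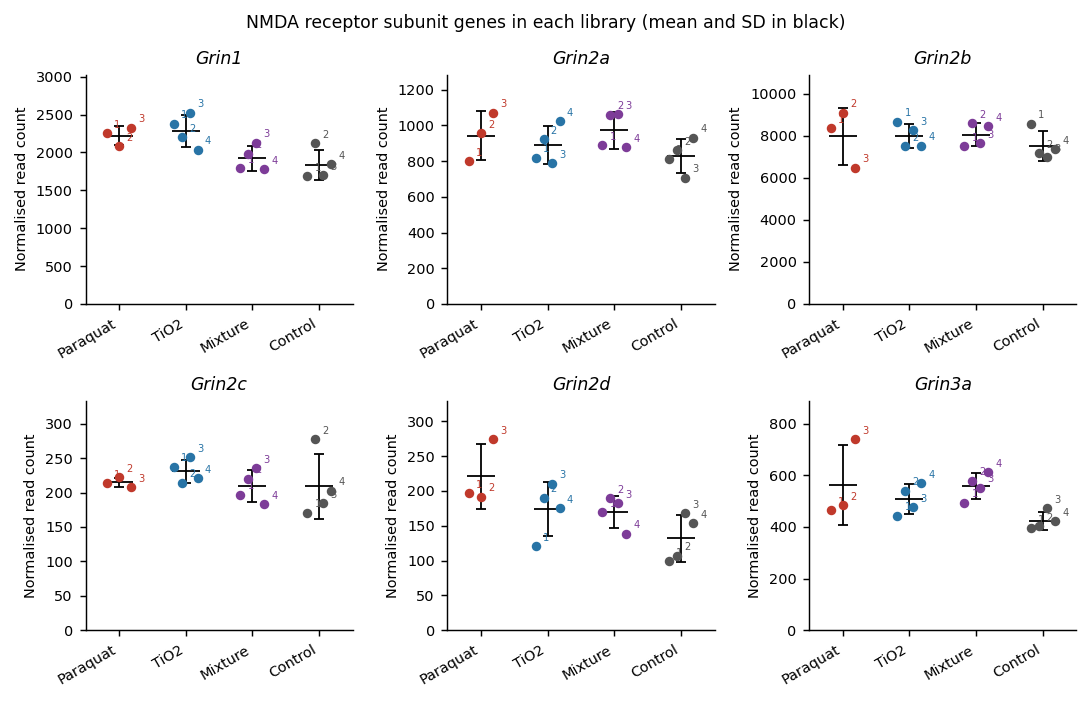
Normalised read count (y axis, from 0) of the 6 subunit genes in each library, by group (x axis). Points are libraries with their number, and black bars are the mean and SD. Grin2d is higher in all 3 Paraquat libraries than in any Control library, and Grin3a in all 4 Mixture libraries.

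Differences passed the test against Control, each for 1 gene. Grin2d was 1.69-fold higher after paraquat and Grin1 was 1.25-fold higher after TiO2 nanoparticles, while the test made no subunit call after the mixture. Grin1 also departed from additivity by the test, being lower after the mixture than the sum of the 2 single exposures on the log2 scale. When the same fit was run after the GC trend was removed, none of these calls passed. After paraquat 1 of 6 genes was called by limma at an adjusted p under 0.05, against 10.4% of all genes tested (6.34% higher, 4.06% lower). After TiO2 1 of 6 was called, against 6.4% of all genes (4.3% higher, 2.1% lower). After the mixture 0 of 6 were called by limma, edgeR or DESeq2, against 1.19% of all genes by limma (1.12% higher, 0.0707% lower). At an unadjusted limma p under 0.05 there were 3 of 6 in each exposure. The shares of all genes were 26.6% in Paraquat, 23.3% in TiO2 and 12.2% in Mixture. The median log2 fold change of the 6 genes was 0.23 in Paraquat, 0.21 in TiO2 and 0.17 in Mixture, beside -0.01 over all genes in each. All these comparisons use the same 4 Control libraries. With so few genes, shares of this size cannot be set apart from the background.

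**Figure D2:**
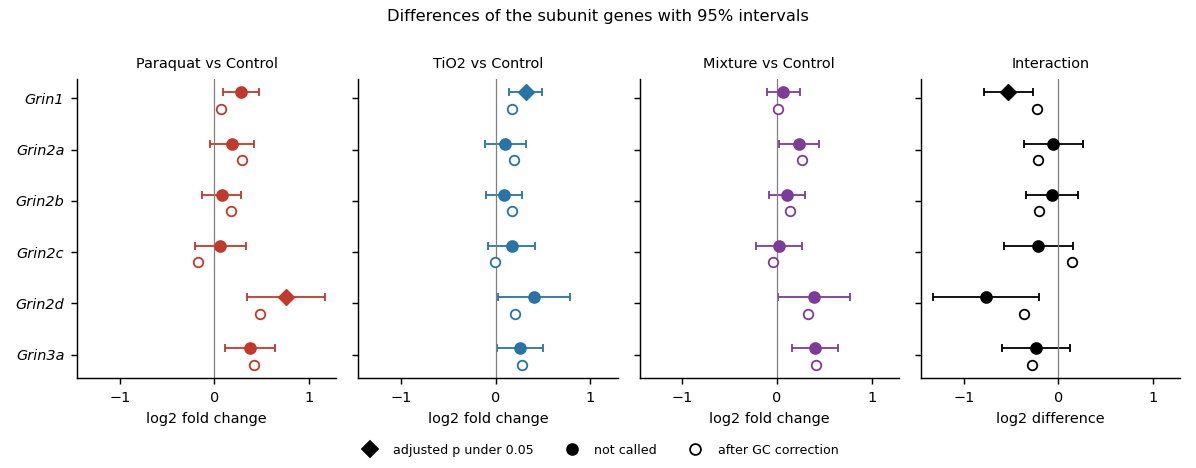
Log2 fold change (x axis) of each subunit gene (rows) against Control after paraquat, TiO2 and the mixture, and the interaction as a log2 difference. Bars are 95% intervals of the limma fit, diamonds are calls and open circles are values after GC correction. The filled diamonds are Grin2d in Paraquat at 0.75, Grin1 in TiO2 at 0.32 and the Grin1 interaction at -0.53, and each open circle beside them lies nearer 0.

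Grin1, the subunit that every NMDA receptor needs, had its highest group means in the single exposures. Its normalised read count was 2258, 2081 and 2328 in Paraquat, 2380.2, 2202, 2524 and 2035 in TiO2, 1793, 1985, 2128 and 1781 in Mixture, and 1683, 2119.8, 1702 and 1842 in Control. Control 1, 3 and 4 lay below every Paraquat and TiO2 library, but Control 2 lay above Paraquat 2 and TiO2 4, so the groups overlap. The means were 2222 ± 127 in Paraquat (SD, n = 3), 2285 ± 213 in TiO2, 1922 ± 166 in Mixture and 1837 ± 201 in Control (SD, n = 4 each).

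The TiO2 difference in Grin1 was 0.32 ± 0.09 on the log2 scale (SE; limma adjusted p = 0.0267). The call ended when any of Control 1, 3 and 4 or TiO2 1, 2 and 3 was left out (adjusted p from 0.0542 to 0.101), and with GC correction, where the difference was 0.17 (adjusted p = 0.143). Over all 28 alternatives the adjusted p ran from 0.00788 to 0.143. The Paraquat difference was 0.28 ± 0.09 and did not pass (adjusted p = 0.0540). It passed with DESeq2 (0.0349), voom (0.0495) or only genes with a mean of at least 50 (0.0470), and without Control 2, Paraquat 2, TiO2 3 or TiO2 4 (0.0165 to 0.0483). After GC correction it was 0.07 (0.592). In Mixture the Grin1 difference was 0.07 ± 0.09 (adjusted p = 0.827), and 0.01 after GC correction (0.971).

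The interaction of Grin1, the Mixture difference from Control less the differences of both single exposures, in log2 units, was -0.53 ± 0.13 (adjusted p = 0.0101). Among the 6 genes it was the 1 called, against 11.8% of all genes (5.41% positive, 6.36% negative). The call held without any 1 library, with values of -0.60 to -0.48 and adjusted p of 0.00319 to 0.0310. After GC correction the interaction was -0.23 and was not called (adjusted p = 0.153). Set directly against each other, Mixture differed from TiO2 by -0.25 ± 0.09 (adjusted p = 0.286) and differed from Paraquat by -0.21 ± 0.09 (0.3002). Neither passed.

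A noncoding gene, Grin1os, lies on the opposite strand over exons of Grin1 and is not in the table. Whether reads were assigned by strand is not given in the sources used here. For the stretch that both genes cover, it is therefore not known whether the Grin1 values include reads from Grin1os.

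Grin2d, the GluN2 subunit of slow receptors found mainly in interneurons and early in life, had the largest range among the 6 genes, 2.76-fold from lowest to highest library. Its normalised read count was 196, 192 and 275 in Paraquat, 120.4, 190.1, 211 and 175 in TiO2, 169, 189.8, 182 and 139 in Mixture, and 99.5, 107, 168 and 153 in Control. All 3 Paraquat libraries lay above every Control library, and Paraquat 3 stood well above its group. TiO2 and Mixture overlapped Control, each with 3 of 4 libraries above the highest Control. In TiO2 no subunit gene stood wholly above Control, as 7.51% of all genes did. The means were 221 ± 46.5 in Paraquat (SD, n = 3), 174 ± 38.7 in TiO2, 170.0 ± 22.5 in Mixture and 132 ± 33.8 in Control (SD, n = 4 each).

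The Paraquat difference in Grin2d was 0.75 ± 0.20 on the log2 scale (adjusted p = 0.0212), with a 95% interval of 1.27 to 2.24 for the fold. Grin2d was the 1 subunit gene whose Paraquat and Control libraries did not overlap, against 11% of all genes that stood apart upward. The call was lost without Paraquat 3 (0.59; adjusted p = 0.105), Control 1 (0.0633) or Control 2 (0.0506). After GC correction the difference was 0.48 and was not called (adjusted p = 0.171). With the replicate block and GC correction together it was called. Over all 28 alternatives the adjusted p ran from 0.00254 to 0.171 and 24 kept the call. Differences of 0.40 ± 0.18 in TiO2 (adjusted p = 0.189) and 0.39 ± 0.18 in Mixture (0.394) did not pass. With GC correction they were 0.21 and 0.32 (adjusted p = 0.582 and 0.488).

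Grin2d is known as an interneuron gene, and striatal interneuron markers were therefore set beside it. Of 10 such markers 8 were in the table, with Pvalb and Calb2 not listed and none of the 8 at 0. Those in the table were Sst, Npy, Chat, Slc5a7, Th, Lhx6, Nkx2-1 and Gad2. Gad2 is not confined to interneurons, so the sum does not measure interneurons alone. They summed to 13100 to 15671 in Paraquat, 13271 to 14909 in TiO2, 13576 to 14398 in Mixture and 13043 to 14577 in Control. Paraquat 3, the highest library for Grin2d, was also the highest here, with a mean log2 difference from the Control mean of 0.34, against -0.19 to 0.17 in the other libraries. By test 1 of 8 was higher in Paraquat, 0 in TiO2 and 0 in Mixture. The part of these markers in the Grin2d result was not tested.

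Mixture lay below Paraquat in every library for Grin2d, at -0.37 ± 0.20 (adjusted p = 0.406; -0.16 after GC correction), and 6.61% of all genes stood apart downward in that comparison. The interaction of -0.77 ± 0.27 did not pass in limma (adjusted p = 0.0668). It passed with DESeq2 (0.0256), with the replicate block (0.0207), and without Control 3 (0.0317) or TiO2 1 (0.0178). After GC correction it was -0.37 (adjusted p = 0.475). Mixture and TiO2 differed by -0.01 ± 0.18 (95% interval -0.39 to 0.37), and Paraquat and TiO2 by 0.35 ± 0.20 (-0.06 to 0.76).

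Exons of Grin2d are overlapped on the other strand by Kdelr1, a receptor that returns proteins to the endoplasmic reticulum, and by the antisense gene Gm45441. Both are in the table, and strand use in counting is not known. Kdelr1 averaged 1046 ± 93.6 in Paraquat and 999 ± 59.0 in Control (log2 0.06, adjusted p = 0.653). Gm45441 averaged 240.1 ± 36.8 in Paraquat and 223 ± 10.0 in Control (log2 0.09, adjusted p = 0.618). Gm45441 averaged 272 ± 19.2 in TiO2 and 253 ± 25.8 in Mixture (log2 0.28 and 0.17, adjusted p = 0.0893 and 0.522). All 4 libraries of each lay above every Control library, which holds for 7.51% of all genes in TiO2 and 4.38% in Mixture. Neither gene passed the test in any exposure.

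**Figure D3:**
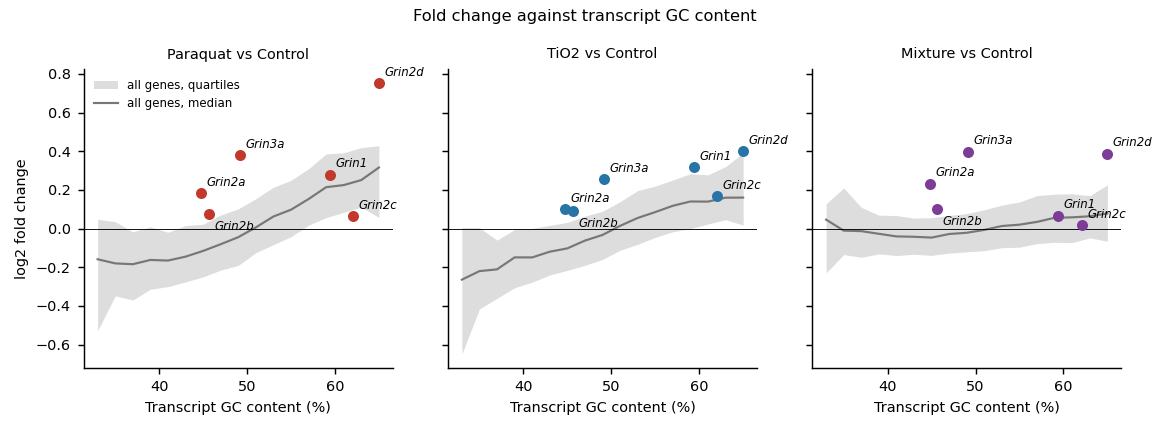
Log2 fold change against Control (y axis) by transcript GC content in percent (x axis) for the 6 subunit genes, with the median and quartiles of all genes in bins of 2 percentage points. In Paraquat the line of medians climbs to 0.32 at 64 to 66% GC, where Grin2d is at 0.75, and in Mixture to 0.08, where Grin2d is at 0.39.

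Grin3a encodes the GluN3A subunit, which in rodents is linked to immature synapses. Its normalised read count was 464, 483 and 740.1 in Paraquat, 443, 539.9, 476 and 569.8 in TiO2, 493, 578, 552 and 611 in Mixture, and 395, 402, 473 and 423 in Control. Every Mixture library was above every Control library, which holds for 4.38% of all genes in that comparison. Paraquat 1 and TiO2 1 lay below Control 3, so those groups overlap Control, and Paraquat 3 was again the highest library.

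The Mixture difference in Grin3a was 0.40 ± 0.12 (adjusted p = 0.110) and did not pass. It passed when Mixture and Control were fitted alone (0.0246), without Paraquat 3 (0.0209), with the replicate block (0.0357) and with the block and GC correction together (0.0167), and over the 28 alternatives its adjusted p ran from 0.0167 to 0.275. The Paraquat difference of 0.38 ± 0.13 (adjusted p = 0.0583) passed with edgeR (0.0363), DESeq2 (0.0250), voom (0.0499) and GC correction (0.0444). It passed with the replicate block too, with and without GC correction, and over the 28 alternatives its adjusted p ran from 0.00898 to 0.398. It also passed without Control 3, Paraquat 1 or Paraquat 2 (0.0348 to 0.0494), and it was 0.17 without Paraquat 3 (adjusted p = 0.398). In TiO2 the difference was 0.26 ± 0.12 (adjusted p = 0.192). The differences of Grin3a after GC correction were 0.41 in Paraquat, 0.28 in TiO2 and 0.41 in Mixture.

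Grin2b and Grin2a encode the 2 main GluN2 subunits of the forebrain, with GluN2B giving slower currents and anchoring calcium/calmodulin-dependent kinase II. Neither was called in any of the exposures. Grin2b had 8361, 9086 and 6471 normalised reads in Paraquat, 8669, 7505, 8253 and 7514 in TiO2, 7503, 8603, 7647 and 8439.9 in Mixture, and 8568, 7156, 6964 and 7353 in Control. Paraquat held both the highest and the lowest library of all 15, Paraquat 2 and Paraquat 3. The differences were 0.08 ± 0.10 in Paraquat (95% interval -0.13 to 0.28), 0.09 ± 0.09 in TiO2 (-0.10 to 0.28) and 0.10 ± 0.09 in Mixture (-0.09 to 0.29), with adjusted p of 0.665, 0.589 and 0.717. After GC correction the Grin2b differences were 0.17 in Paraquat, 0.17 in TiO2 and 0.14 in Mixture (adjusted p = 0.312, 0.312 and 0.552).

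Grin2a had 801, 958 and 1071 normalised reads in Paraquat, 819, 924, 789 and 1024 in TiO2, 889, 1059.8, 1063 and 879 in Mixture, and 814, 863, 706 and 931 in Control. All groups overlapped, with Paraquat 3 highest and Control 3 lowest. The differences were 0.18 ± 0.11 in Paraquat (adjusted p = 0.305), 0.10 ± 0.10 in TiO2 (0.596) and 0.23 ± 0.10 in Mixture (0.352). The Mixture interval ran from 0.02 to 0.45 and its unadjusted p was 0.0345. After GC correction the Grin2a differences were 0.29 in Paraquat, 0.19 in TiO2 and 0.27 in Mixture (adjusted p = 0.0787, 0.261 and 0.169).

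Grin2c encodes GluN2C, and none of its differences passed the test. Its normalised read count was 213, 222 and 208 in Paraquat, 238, 215, 251 and 221 in TiO2, 197, 220.2, 235 and 183 in Mixture, and 171, 278, 184 and 202 in Control. Control 2 was the highest and Control 1 the lowest of all 15 libraries, so every exposed library lay inside the Control range. The differences were 0.06 ± 0.13 in Paraquat (adjusted p = 0.792), 0.17 ± 0.12 in TiO2 (0.420) and 0.02 ± 0.12 in Mixture (0.972). With GC correction they were -0.18, -0.01 and -0.04. Grin2c and Grin2d have similar GC content. In Paraquat their log2 fold changes were 0.06 and 0.75, and -0.18 and 0.48 with GC correction, where neither was called. The difference between these genes was not tested.

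Compared with one another, the exposures gave no subunit call. For Mixture against Paraquat 0 of 6 were called by limma, edgeR or DESeq2 with 0.00643% of all genes called by limma. At an unadjusted p under 0.05 there was 1 of 6, against 14.4% of all genes. For Mixture against TiO2 0 were called and 1 of 6 had an unadjusted p under 0.05, against 11.4% of all genes. For Paraquat against TiO2 0 were called and 0 had such a p, against 6.41%. In both, 0% of all genes were called by limma.

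Levels of different genes were compared as normalised reads per kilobase of exon, over all annotated exons of a gene. In Control, Grin2b stood at 302 ± 29.1 per kilobase and Grin1 at 189 ± 20.8, followed by Grin2a at 46.2 ± 5.27, Grin2c at 41.4 ± 9.47, Grin3a at 34.5 ± 2.89 and Grin2d at 19.8 ± 5.08 (SD, n = 4). Grin2a and Grin2c, and Grin2c and Grin3a, differed by less than the SD of Grin2c. By the longest transcript in place of all exons Grin1, at 430 ± 47.1 per kilobase, stood above Grin2b, at 312 ± 30.05, so the order of these 2 genes rests on the length used. By that length Grin2a (56.6) and Grin3a (56.5) were level. Grin2b had 8.66 ± 2.31 times the reads of Grin2a in Paraquat (SD, n = 3), 9.13 ± 1.65 times in TiO2, 8.34 ± 0.99 times in Mixture and 9.14 ± 1.25 times in Control (SD, n = 4 each).

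Subunit balance does not depend on how libraries were scaled, and 4 such measures were set against Control by exact two-sided permutation tests, 12 in all. None passed, with a smallest adjusted p of 0.686. With 3 against 4 libraries the smallest p possible is 0.0571 and with 4 against 4 it is 0.0286. No Paraquat measure could therefore pass, and no single TiO2 or Mixture measure could pass alone after adjustment over 12 tests. These tests cannot show that subunit balance was unchanged. The values given here are without GC correction, and the shares and the GluN2 to Grin1 ratio set GC-rich against GC-poor genes. In TiO2 the median log2 fold change of all genes was 0.14 at 58 to 60% GC, the range of Grin1. It was -0.10 at 44 to 46% GC, the range of Grin2b. The part of the GC trend in these measures was not tested. Grin2d held 4.60% ± 1.10 of the summed per-kilobase signal of the 6 genes in Paraquat (n = 3) and 3.16% ± 0.93 in Control (n = 4; exact permutation p = 0.171). Grin3a held 6.61% ± 0.49 in Mixture and 5.46% ± 0.70 in Control (n = 4 each; exact permutation p = 0.114). The log2 ratio of the GluN2 genes to Grin1 was 0.91 ± 0.09 in TiO2 and 1.12 ± 0.18 in Control (n = 4 each; exact permutation p = 0.114). The log2 ratio of Grin2a to Grin2b was -2.60 ± 0.42 in Paraquat, -2.70 ± 0.27 in TiO2, -2.58 ± 0.17 in Mixture and -2.71 ± 0.20 in Control, and Paraquat 3 was the highest library at -2.12.

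**Figure D4:**
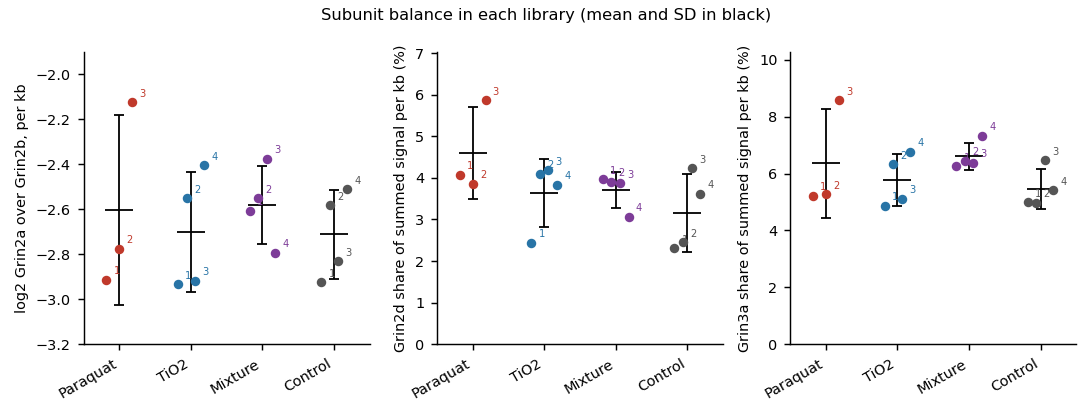
Measures of subunit balance (y axes) in each library by group (x axis). They are the log2 ratio of Grin2a to Grin2b per kilobase, and the shares of Grin2d and of Grin3a in the summed per-kilobase signal of the 6 genes in percent. Bars are the mean and SD. Values are without GC correction. Paraquat 3 is highest in all 3 panels, at -2.12, 5.87% and 8.58%.

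Genes whose products hold, modify or feed the receptor were taken from 6 lists of 70 genes, 68 of which were tested. Grin3b and Dao were not in the table. After paraquat 12 were higher and 4 lower, at a median log2 fold change of 0.06. After TiO2 5 were higher and 1 lower (median 0.10), and after the mixture 3 were higher and 0 lower (0.04). For the mixture edgeR called 2 higher and 0 lower. At an unadjusted limma p under 0.05 there were 29 of 68 after paraquat, 27 after TiO2 and 13 after the mixture. All genes gave 26.6%, 23.3% and 12.2% at that threshold. The medians over all genes were -0.01 in each, and shares of all genes called are those given above. After the GC trend was removed the test called 6 higher and 2 lower after paraquat, 7 and 0 after TiO2, and 1 and 0 after the mixture. Without single libraries the paraquat calls ran from 4 to 12 higher, fewest without Paraquat 3, and from 0 to 5 lower, fewest without Paraquat 1 and most without Paraquat 2 or TiO2 3. Fewer than 4 were lower without any 1 of the Control or Mixture libraries, Paraquat 1 or 3, or TiO2 1 or 2. The TiO2 calls ran from 2 to 7 higher, fewest without Control 1 or TiO2 3, and from 1 to 5 lower, most without TiO2 4. The mixture calls ran from 0 to 4 higher, with 0 left once Control 1, 2 or 4 or Mixture 1, 3 or 4 was left out. The interaction was called positive for 7 and negative for 9 of the 68 (7 and 11 with edgeR, 2 and 5 with GC correction). Without single libraries it was positive for 3 to 9, fewest without Paraquat 1, TiO2 3 or Mixture 2, and negative for 4 to 11, fewest without Paraquat 3.

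Among postsynaptic scaffold genes 5 of 14 were higher after paraquat, and 2 with GC correction or when Control 1 or any 1 Paraquat library was left out. Shank1, which ties receptor complexes to the spine skeleton, averaged 731 ± 119 in Paraquat and 420.3 ± 73.3 in Control (log2 0.80 ± 0.15, adjusted p = 0.00335). Dlgap2 and Dlgap3, which link the anchoring protein PSD-95 to Shank proteins, rose by 0.34 ± 0.09 and 0.48 ± 0.13. The Shank1 call held without any 1 library. That of Dlgap2 was lost without Paraquat 1 or 2 (adjusted p up to 0.0608), and that of Dlgap3 without Control 1, Paraquat 1 or Paraquat 3 (up to 0.110). With GC correction the calls of Dlgap2 (0.0722) and Dlgap3 (0.121) were lost and that of Shank1 was not (0.0448). After TiO2 1 of 14 was higher, Dlgap2 at 0.40 ± 0.08 (adjusted p = 0.00504), also without any 1 library. After the mixture 1 of 14 was higher, Shank1 at 0.65 ± 0.14 (0.0299), a call that ended when Control 1, 2 or 4 or Mixture 1, 3 or 4 was left out (up to 0.0989) and with GC correction (0.0687).

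Of 21 genes of receptor kinases, phosphatases and signalling 3 were higher and 4 lower after paraquat. The counts were 3 and 2 with edgeR and 2 and 1 with GC correction, with 0 higher without Paraquat 3 and 0 lower without Paraquat 1. Rasgrf2, an exchange factor that passes calcium signals to Ras, rose by 0.61 ± 0.13 (adjusted p = 0.00605) and Camk2a, the alpha subunit of the kinase that binds GluN2B, by 0.32 ± 0.08 (0.0197). Ppp3ca, the catalytic subunit of the phosphatase calcineurin, averaged 13737 ± 731 in Paraquat and 17857 ± 683 in Control and fell by 0.38 ± 0.09 (0.0106). The calmodulin gene Calm2 fell by 0.44 ± 0.12 (0.0292). Paraquat 3 decided Rasgrf2 (0.0585 without it) and Paraquat 1 decided Ppp3ca (0.0524). Camk2a was lost without Control 1, Paraquat 1 or Paraquat 3 (up to 0.0740). Calm2 did not pass when Control 1, 2 or 4 or Paraquat 1 or 3 was left out (up to 0.127). With GC correction Calm2 (0.0640) was not called.

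In the assembly and trafficking list 2 of 14 genes were higher after paraquat (1 higher and 1 lower with GC correction). Ephb2, a receptor kinase that binds NMDA receptors at the synapse, averaged 105 ± 9.56 in Paraquat and 58.6 ± 5.03 in Control (log2 0.83 ± 0.16, adjusted p = 0.00298), and the call held without any 1 library and with GC correction (0.00799). Gipc1, an adaptor of receptor trafficking, was higher by 0.55 ± 0.17 (0.0415). Its call ended when Control 1 or 4, Paraquat 1 or 3, or TiO2 2 was left out (up to 0.143), and with GC correction (0.152). Apba1, an adaptor also called Mint1, was higher after TiO2 by 0.29 ± 0.08 (0.0293) and after the mixture by 0.34 ± 0.08 (0.0327). The TiO2 call ended when Control 1 or 4 or TiO2 2 or 3 was left out (up to 0.123) and with GC correction (0.137). The mixture call ended when Control 1, 2 or 4 or any Mixture library was left out (up to 0.126).

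Slc6a9, the glycine transporter 1 that clears the co-agonist, was the 1 gene of 10 co-agonist genes called after paraquat and the 1 called after TiO2, where GC correction gave 2. It averaged 435 ± 137 in Paraquat, 400.2 ± 49.5 in TiO2, 349 ± 64.9 in Mixture and 246 ± 16.2 in Control. It was higher by 0.77 ± 0.17 after paraquat (adjusted p = 0.00764), without any 1 library too, and by 0.69 ± 0.15 after TiO2 (0.0112; 0.0617 without TiO2 3). Grina, which encodes a membrane protein once named as a glutamate-binding subunit, was higher by 0.37 ± 0.10 after paraquat (0.0201). That call was lost without Control 1, Paraquat 1 or Paraquat 3 (up to 0.115) and with GC correction (0.150). After TiO2 Grina was higher by 0.39 ± 0.09 (0.0118; 0.0606 without Control 1).

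For each subunit gene the genes with the most similar profile over the 15 libraries were looked up among 11605 genes with a mean of at least 50. These correlations describe libraries that share group, depth and GC trend. Grin1 was most like Synpo (Pearson r = 0.96, Spearman rho = 0.94), a spine protein gene, then the protocadherin gene Pcdhgc5 (0.94 and 0.94) and Chst1 (0.93 and 0.93). Grin2d was most like Casc3 (0.94 and 0.80), Gpr26 (0.93 and 0.86) and Zdhhc9 (0.92 and 0.92). For Grin3a the closest were 1700025G04Rik (0.89 and 0.93), Gnas (0.89 and 0.91) and Slc4a8 (0.88 and 0.85). Grin2a was closest to Chrm2 (0.88 and 0.85), Habp4 (0.88 and 0.85) and Prcp (0.85 and 0.86), and Grin2b to 1700086L19Rik (0.88 and 0.86), Gm38393 (0.88 and 0.86) and Mga (0.85 and 0.94). The highest values for Grin2c were lower, with Lynx1 (0.84 and 0.74), Elp5 (0.81 and 0.76) and Cap1 (0.81 and 0.67).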

How the data were processed

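The table that the authors deposited holds a normalised signal: in each library the read count of a gene was scaled by 1 factor, as the values show. Whole reads were recovered from the step of each library for 100% of values within 0.001, and are claimed for 11 libraries. In the other 4 (Paraquat 1, TiO2 3 and 4, Mixture 1) the step lies too near 1. Per the submitters' processing notes, the genome was mm10 and the tools included DESeq2 2.1.8.3 and Bowtie2 2.3.2.2. Per the labels' protocols, RNA came from a NucleoSpin RNA II kit and libraries from the Lexogen SENSE total RNA kit, run on a NextSeq500. Not given in the sources used here are the read counter, annotation, strand setting and gene filter. All 15569 symbols matched GENCODE M21.

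All 15 libraries entered 1 fit of log2(value + 1) by limma 3.58.1 with its trend and robust options, under R 4.3.3. Fold changes on that scale understate the change of low genes. Genes were filtered by filterByExpr from edgeR 4.0.16, which dropped 13 and kept 15556, with 6 of 6 subunit genes among them. A gene was called when its p, adjusted by Benjamini-Hochberg over all genes tested, was under 0.05. Without molecular identifiers, depth speaks for counting error only. Ratios were compared with exact permutation tests in scipy 1.17.1. As an alternative, the recovered reads went through edgeR's quasi-likelihood test, with 1813 genes called in Paraquat, 996 in TiO2 and 166 in Mixture. Other alternatives were DESeq2 1.42.0, voom, other scalings, pseudocounts and filters, a GC correction (a lowess curve of span 0.3 per library), a replicate block, and leaving out each library.

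Named were all members, up to 12 called partner genes per exposure by smallest p, and the 3 genes most like each member by Pearson r. Of the genes this rule names, 2 are counted in their lists and not reported singly here. Members and lists were chosen with earlier results of these data known. Libraries of a group differed by a chi-square of 3.07 to 25.3 per degree of freedom. The largest values were those of Paraquat 3 with Paraquat 1 (22.2) and Paraquat 2 (25.3), then TiO2 3 with TiO2 4 (18.6). Paraquat 1 and 2 differed by 6.3. The whole range is more than counting noise and finds no library deposited more than once, but does not show separate pups.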

Additional observations from a re-analysis of the deposited data

Results flagged for a closer look

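Within groups of 4 libraries, 72 sets of values were searched for a library far from the others, a search that marks about 1 group in 20 by chance, and 2 were found. Camk2a in TiO2 3 was at 10837 normalised reads, with the other TiO2 libraries at 8819.8 to 9086. The Grin2d share of the summed per-kilobase signal was 3.07% in Mixture 4 and 3.88% to 3.97% in the other Mixture libraries. The Grin1 interaction was listed because the effect of the mixture differed from the sum of the single exposures by -0.53 on the log2 scale (limma adjusted p = 0.0101), and it was not called after GC correction.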

How the results depend on the processing

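Pseudocounts, TMM scaling and quantile normalisation changed no count of called subunit genes. For subunit genes, ratios and named partner genes together, 1424 values under an alternative kept direction and side of the threshold, 93 lost a call and 24 gained one. Partner genes were named because they were called, so they could lose a call but not gain one. Of the subunit calls, Grin2d in Paraquat held in 24 of 28 alternatives, Grin1 in TiO2 in 20 of 28 and the Grin1 interaction in 25 of 27. Calls were gained by Grin1 (7 of 28) and Grin3a (9 of 28) in Paraquat, Grin3a in Mixture (4 of 28) and the Grin2d interaction (4 of 27). The paraquat count of 1 became 2 with edgeR or the filter on a mean of 50, and 3 with DESeq2 or voom. With GC correction it stayed at 1, with Grin3a called in place of Grin2d. The TiO2 count of 1 became 0 with GC correction, and the mixture count of 0 became 1 with only the groups compared. The interaction count of 1 became 2 with DESeq2 and 0 with GC correction. Leaving out single libraries gave 0 to 3 calls for paraquat, 0 to 1 for TiO2, 0 to 1 for the mixture and 1 to 2 for the interaction.

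Directions turned for small differences, and the cause was not tested. With GC correction Grin2c became -0.18 (paraquat), -0.0053 (TiO2), -0.043 (mixture) and 0.14 (interaction), and Grin2d became 0.12 for Mixture against TiO2. With edgeR Grin2c was -7.3e-06 in the mixture. Leaving out libraries gave -0.025 to 0.22 for Grin2b and -0.023 to 0.21 for Grin2c in paraquat, -0.068 to 0.16 for Grin2c in the mixture, and -0.18 to 0.088 for Grin2d in Mixture against TiO2. It gave -0.091 to 0.012 for Grin1 in Paraquat against TiO2, and -0.17 to 0.044 and -0.21 to 0.037 for the Grin2a and Grin2b interactions. The log2 Grin2a to Grin2b ratio difference ran from -0.13 to 0.26 in paraquat and from -0.089 to 0.088 in TiO2, and that of GluN2 genes to Grin1 from -0.021 to 0.13 in the mixture. The Grin3a share difference ran from -0.21 to 1.46 percentage points in paraquat and from -0.028 to 0.64 in TiO2.

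Libraries of the same replicate number were not clearly more alike than others, by a check that cannot exclude a shared batch, litter or run. Of 21 same-numbered pairs 8 had a correlation of deviations over 0.1 (range -0.186 to 0.271), and 4 of 15 libraries correlated best with their own number. Pairs of different number ran from -0.338 to 0.337. With the replicate block the counts were 2 for paraquat, 1 for TiO2, 1 for the mixture and 2 for the interaction. With the replicate block and GC correction they were 2, 0, 1 and 0, Grin2c was -0.18, -0.0053, -0.043 and 0.14, and Grin2d in Mixture against TiO2 was 0.12.

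Depth limits Grin2d most, at 96 reads in its lowest library. Groups of 3 or 4 libraries limit every comparison.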
